A study of Parasteatoda tepidariorum with 20 samples.

Results

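The Hox genes of the common house spider Parasteatoda tepidariorum were followed through embryogenesis. They were taken as every gene model whose description names a Hox gene (Hox-A to Hox-D with a number, abdominal-A or abdominal-B, ultrabithorax, antennapedia, labial, deformed, proboscipedia, sex combs reduced or fushi tarazu). This gave 21 of the 27990 gene models in the table. The 21 gene models carry 19 gene IDs, since antennapedia-like and abdominal-A on scaffold 48 are each split into 2 gene models. The descriptions mix insect names with vertebrate names, so a Hox-A1-like gene model is the one whose RefSeq synonym is labial, and Hox-B4-like is the one whose synonym is deformed.

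Hox genes encode homeodomain transcription factors that give identity to regions along the anterior-posterior axis of animals. They usually lie in clusters, in which the order of the genes follows the order of the body regions they pattern. Spiders and scorpions descend from an ancestor with a duplicated genome, and most of their Hox genes are present as copies in separate clusters. In spider embryos the germ disc is a flat sheet of cells that turns into the segmented germ band, on which the prosoma with its appendages and the opisthosoma become visible.

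RNA from pools of whole embryos was sequenced at 10 stages (st), from st1 to st8 and st10, with st5 split into early and late. Each stage had 2 samples, series 1 and series 2, each series coming from its own pair of parents of the Osaka isolate, and no treatment or genetic change is named for any group. The stages ran from 9 h after egg laying at st1, through 36 to 37 h at st5 late, 50 h at st7 and 60 h at st8, to 78 h at st10. Values are RPKM, reads scaled to the exon length of the gene model and to the reads of the sample, and p-values measure the spread between the 2 series only.

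Between 9160802 and 17019009 reads per sample lay behind the values. The st6 sample of series 2 stood apart from the other 19, with 93.0% of its reads on gene models against 77.7 to 88.7%. At st6 the median difference of the Hox gene models, series 2 minus series 1, was -0.75 on the log2(RPKM + 1) scale, against -0.35 over all gene models tested, and 15 of the 21 were lower in series 2. After scaling by median-ratio size factors the Hox median was -0.34, with 14 lower. The cause was not tested, and results that rest on st6 are given below with st7 beside them. In whole embryos, a low value from few expressing cells and one from little RNA per cell cannot be told apart.

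Of the 19 gene IDs, 17 fell into 2 groups in the RefSeq assembly, 8 on chromosome 8 and 9 on chromosome X2. The Hox gene models of the older assembly used in the files, Ptep_1.0, lay on 9 scaffolds, of which 6 carried more than 1 Hox gene model, and scaffold 48 alone carried 7. The remaining 2, Hox-C10-like aug3.g15983 on chromosome 1 and Hox-B10a aug3.g6223 on chromosome 3, lay in neither group, so the data place them outside the clusters despite their names. Another gene of the X2 group, hox3-B by its RefSeq synonym, is described as Mix.2-like in the table and was not caught by the names; its values are given at the end.

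All 21 gene models reached 1 RPKM in at least 2 samples and entered the tests, but 4 did so only through st10. The table had 13375 gene models past that filter. All 21 Hox gene models differed across the 10 stages by limma's moderated F test, beside 79.8% of all gene models tested, so that this count says little about Hox genes in particular. The Hox gene models were few at the beginning of development. At st1, 2 of them reached 1 RPKM in series 1 and 3 in series 2, and at st10 the counts were 21 and 20.

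**Figure D1:**
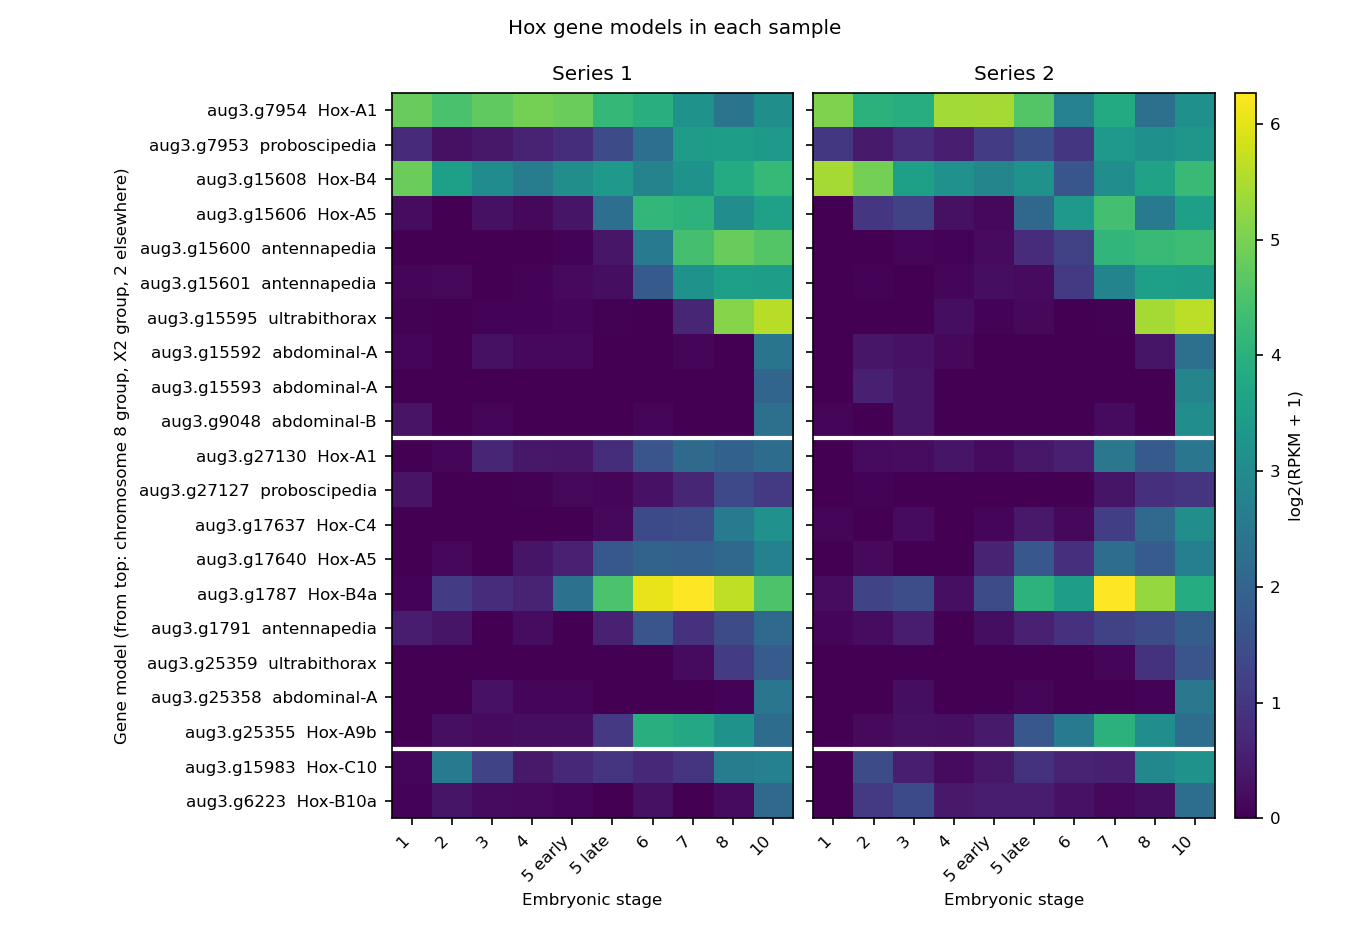
Level of the 21 Hox gene models (rows) in the 10 stages of series 1 (left) and series 2 (right), as log2(RPKM + 1), ordered along chromosome 8, chromosome X2 and the 2 models elsewhere. Only Hox-A1-like aug3.g7954 and Hox-B4-like aug3.g15608 are bright at st1, and abdominal-A and abdominal-B appear at st10 only.

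The stage of onset was taken as the first at which a gene model reached 1 RPKM in both series. At st1, the first stage sampled, an onset marks RNA already present and not its start. Among the 20 Hox gene models with an onset, 2 had it at st1, where 79.9% of the 12655 gene models with an onset had theirs. A further 2 had it at st2 (6.26% of all with an onset), 4 at st5 late (1.37%) and 2 at st6 (0.932%). Another 2 had it at st7 (1.55%), 2 at st8 (1.04%) and 6 at st10 (2.24%). The peak, the stage with the highest mean, was st10 for 12 of the 21, against 15.0% of all gene models tested, st7 for 4 and st8 for 3. Both series gave the same peak stage for 14 of the 21, against 54.8% of all gene models tested. These counts include the 4 gene models that reached 1 RPKM only at st10. Their onset and their peak in both series had to be st10.

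From the germ disc (st4, st5 early and st5 late) to the germ band (st7, st8 and st10), 20 Hox gene models rose and 1, Hox-A1-like aug3.g7954, fell. Of all gene models tested, 28.2% rose and 18.5% fell. The median change of the Hox gene models was 1.42 on the log2(RPKM + 1) scale, against 0.05 over all tested, and the direction was the same in both series for all 21. The 6 germ band samples lay above the 6 germ disc samples without overlap for 11 Hox gene models, against 15.7% of all gene models tested, and below them for 1. Between st1 and st10, 19 rose and 1 fell, where 23.2% of all gene models tested rose and 34.9% fell. The remaining one, Hox-B4-like, did not pass the test from st1 to st10. The 4 gene models that passed the filter only through st10 had to be higher there, and without them 16 of 17 rose from germ disc to germ band and 15 of 17 from st1 to st10. Ultrabithorax-like aug3.g15595, its X2 copy aug3.g25359 and proboscipedia-like aug3.g27127 reached 1 RPKM only at st8 and st10. From germ disc to germ band they too had to be higher, and they stay in the 16 of 17. Of these, aug3.g25359 and aug3.g27127 are among the 11 without overlap. Outside the germ band, aug3.g27130, aug3.g17637 and aug3.g1791 reached 1 RPKM only at st6 of series 1. They also needed germ band samples to pass the filter.

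**Figure D2:**
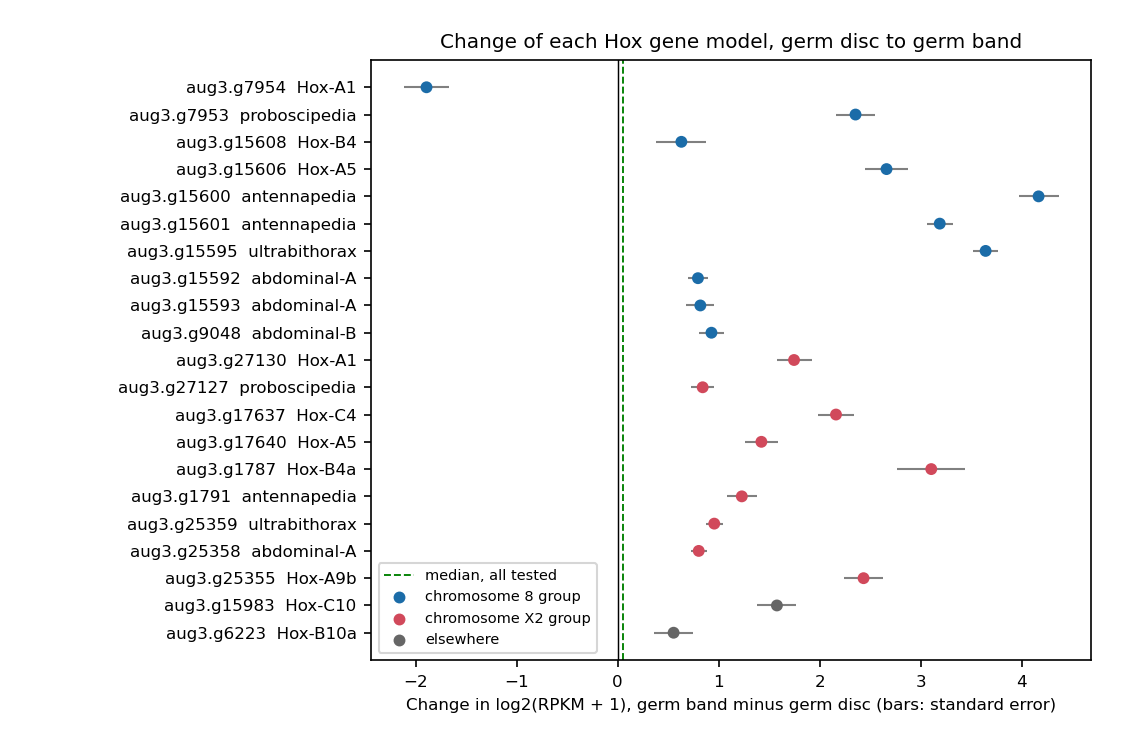
Change in log2(RPKM + 1) from germ disc to germ band for each Hox gene model, with its standard error from limma (6 samples on each side), coloured by chromosome group. The points lie between -1.89 (Hox-A1-like) and 4.17 (antennapedia-like aug3.g15600), and the dashed line is the median of all gene models tested, 0.05.

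The steps between neighbouring stages were tested for all gene models, and 13 of the 21 Hox gene models rose in at least 1 step while 8 rose in none, although most of those 8 rose over the longer spans. From st1 to st2, 1 Hox gene model rose, Hox-C10-like, beside 9.78% of all tested that rose and 17.2% that fell. No Hox gene model changed from st2 to st3 (2.72% rose and 1.78% fell), from st3 to st4 (8.72% and 26.5%) or from st4 to st5 early (0.344% and 0.994%). With limma, 2, 1 and 1 of the 21 had an unadjusted p under 0.05 in these 3 steps, and voom on the recovered reads called 0 in each. With the series as a replicate block, Hox-C10-like aug3.g15983 fell from st2 to st3 (-1.10 ± 0.31, adjusted p = 0.049), and 1 Hox gene model was called from st3 to st4 with no filter and with median-ratio scaling.

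From st5 early to st5 late 1 rose (0.426% of all tested), from st5 late to st6 2 rose (0.396%), from st6 to st7 3 rose (0.277%) and from st7 to st8 3 rose (0.546%). From st8 to st10 6 rose (4.17%), but 4 of those had passed the filter on low values only through their st10 samples, and 2 remain without them. Of these 2, ultrabithorax-like aug3.g25359 also needed its st10 samples to pass, since at st8 only series 1 reached 1 RPKM. No Hox gene model fell in any of these later steps, in which few of all gene models tested fell (0.441%, 0.209%, 0.0822%, 0.0748% and 1.47%). Since st6 stood apart, st7 was also compared directly with st5 late, a comparison added after the data were seen, and 6 Hox gene models rose over it (2.46% of all tested). These counts rest on 2 samples a stage and a spread shared over all stages. When each fit held just its own 2 stages, 0 of all gene models tested passed in the steps from st5 early to st8 and from st5 late to st7, Hox gene models included, and 164 passed from st8 to st10, 3 of them Hox gene models.

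Labial, the most anterior Hox gene in insect clusters, patterns part of the head in flies. Its relative Hox-A1-like aug3.g7954 (scaffold 854, 230626 to 269136, plus strand) was abundant from st1 on. It stood at 27.0 and 32.0 RPKM at st1 in series 1 and series 2, at 30.2 and 41.4 at st4, and at 27.7 and 41.8 at st5 early. By st7 it was at 8.33 and 13.3 RPKM and by st8 at 4.33 and 3.95, with 7.68 and 7.80 at st10. Every germ band sample was below every germ disc sample, and the change was -1.89 ± 0.22 (standard error) on the log2(RPKM + 1) scale, adjusted p = 7.1e-06. From st1 to st10 it fell by 1.80, adjusted p = 0.0011.

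The Hox-A1 gene model of the X2 group, aug3.g27130 (scaffold 196, 540047 to 642659, plus strand), ran the other way. It stayed at or under 0.779 RPKM in all samples up to st5 late and was at 0 reads in both st1 samples. At st7 it reached 3.47 and 4.56 RPKM, and at st10 3.63 and 4.49. It rose from germ disc to germ band by 1.75 ± 0.17 (adjusted p = 1.3e-06) and from st5 late to st7 by 1.70 (adjusted p = 0.0042). At st8 and st10 the copies were close in level, with a ratio of chromosome 8 to X2 of 1.51 and 1.63 at st8 and 2.11 and 1.74 at st10, whereas at st4 it was 95.1 and 147.

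Proboscipedia specifies mouthparts in insects. The chromosome 8 copy aug3.g7953 (scaffold 854, 18306 to 97783, plus strand) was at 1.70 and 1.87 RPKM at st5 late, rose to 9.79 and 9.27 at st7 and stayed there, with 9.48 and 9.01 at st10. At st6 the series disagreed, 3.92 RPKM in series 1 and 0.972 in series 2, so it met the onset limit at st5 late and without a break only from st7. The step from st5 late to st7 was 1.92 ± 0.33 on the log2 scale, adjusted p = 0.0036. Its X2 copy aug3.g27127 (scaffold 196, 289106 to 381373, plus strand) had no onset: its highest mean was 1.20 ± 0.576 RPKM (SD, n = 2) at st8, from 1.61 in series 1 and 0.796 in series 2. The chromosome 8 copy was 8.55 and 9.41 times as high at st10.

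Deformed acts in the gnathal segments of the fly head. Hox-B4-like aug3.g15608 (scaffold 48, 1370643 to 1418916, plus strand), deformed by its RefSeq synonym, was highest in the first sample of each series, at 28.1 and 41.9 RPKM. It was lower at st4, with 5.21 and 8.01 RPKM, and again higher at st10, with 17.2 and 17.7. The series were farthest apart at st2, where series 1 had 10.6 and series 2 had 30.1. The change from st1 to st10, -0.94 ± 0.43 on the log2 scale, did not pass (adjusted p = 0.073). The rise from germ disc to germ band, 0.63 ± 0.25, passed narrowly (adjusted p = 0.049) and was lost under 4 other settings, with adjusted p from 0.053 to 0.079.

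Hox-C4-like aug3.g17637 (scaffold 2609, 16763 to 68954, minus strand) holds the matching place on chromosome X2, between proboscipedia and Hox-A5. It was at or under 0.351 RPKM up to st5 late, where Hox-B4-like never fell below 5.21. It then climbed from 1.78 and 1.23 RPKM at st7 to 8.07 and 7.62 at st10, and rose by 2.16 ± 0.18 on the log2 scale from germ disc to germ band (adjusted p = 2.0e-07). At st10 Hox-B4-like remained 2.13 and 2.32 times as high.

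Hox-A5 is the vertebrate relative of Sex combs reduced, which acts in the labial and anterior thoracic segments of flies. Both copies first reached 1 RPKM in both series at the same stage, st5 late. The chromosome 8 copy, Hox-A5-like aug3.g15606 (scaffold 48, 1228865 to 1240808, plus strand), went from 0.273 and 0.102 RPKM at st5 early to 3.88 and 3.27 at st5 late, then 15.5 and 20.0 at st7. Earlier, in series 2, it had been at 0.973 RPKM at st2 and 1.32 at st3, against 0 and 0.216 in series 1. Its onset in series 2 alone was therefore st3. It was at 7.37 and 5.14 at st8 and at 11.0 and 10.6 at st10, so that st8 was below its neighbours in both series, although neither step passed the test. Its step from st5 early to st5 late was 1.95 ± 0.37 on the log2 scale (adjusted p = 0.020), the earliest step after st2 at which a Hox gene model rose. That call was lost with a pseudocount of 0.1, with no filter on low values, with voom and with only the 2 stages in the fit.

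The X2 copy, Hox-A5 aug3.g17640 (scaffold 2609, 276209 to 311884, minus strand), reached 2.32 and 2.25 RPKM at st5 late and 5.73 and 5.52 at st10, where it peaked. At st7 the chromosome 8 copy was 5.59 and 5.32 times as high as the X2 copy, and at st10 1.93 and 1.92 times. The ratio was therefore near the same in both series at each of these stages and differed between the stages.

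Antennapedia acts in the thorax of flies, and in this spider it is known to repress legs on the opisthosoma. The 2 pieces of the chromosome 8 copy, aug3.g15600 (scaffold 48, 584792 to 683441) and aug3.g15601 (683492 to 687647, both plus strand), gave nearly the same profile. The first, aug3.g15600, was at 0.300 and 0.741 RPKM at st5 late, 4.90 and 1.36 at st6, 20.4 and 16.3 at st7 and 27.0 and 17.9 at st8. The other, aug3.g15601, was at 2.40 and 1.08 at st6, 8.15 and 6.12 at st7 and 10.7 and 10.6 at st8. Both series lay above both st5 late samples from st6 on, and aug3.g15600 had the largest change of all Hox gene models from germ disc to germ band, 4.17 ± 0.20 on the log2 scale (adjusted p = 9.6e-10). Directly from st5 late to st7 the rise was 3.68 ± 0.34 for aug3.g15600 (adjusted p = 4.2e-05) and 2.80 ± 0.22 for aug3.g15601 (adjusted p = 1.6e-05). The ratio of the pieces lay between 1.26 and 2.67 from st6 to st10.

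The X2 copy, antennapedia-like aug3.g1791 (scaffold 344, 612064 to 706120, minus strand), was lower from st7 on. It reached 1.69 and 1.73 RPKM at st8 and 3.39 and 2.57 at st10, after 2.16 in series 1 and 0.874 in series 2 at st6. Its onset was st8 at 1 RPKM in both series, but st6, as for the chromosome 8 copy, at 0.5 RPKM, at a mean of 1 RPKM, in series 1 alone and with median-ratio scaling. Its change from germ disc to germ band was 1.23 ± 0.15 (adjusted p = 9.1e-06). Taking the chromosome 8 pieces together by exon length, the ratio to the X2 copy was 16.3 and 8.35 at st7 and 4.83 and 5.62 at st10.

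Ultrabithorax and abdominal-A give identity to the posterior thorax and the abdomen of flies, and both act in the opisthosoma of spiders. Ultrabithorax-like aug3.g15595 (scaffold 48, 286636 to 384790, plus strand) had the sharpest step of the 21. It was at or under 0.595 RPKM in all samples up to st7, then at 34.3 and 41.8 at st8 and at 47.1 and 48.6 at st10. The step from st7 to st8 was 4.93 ± 0.21 on the log2 scale (adjusted p = 1.8e-08). This gene model reached 1 RPKM only at st8 and st10, so it entered the tests through those stages. The X2 copy aug3.g25359 (scaffold 98, 1107797 to 1217287, plus strand) had 0 reads in all 14 samples from st1 to st6, which allows up to 0.130 to 0.242 RPKM (3 reads, counting error only). It had 1.14 and 0.902 RPKM at st8 and 2.52 and 2.13 at st10. From st7 to st8 it rose by 0.89 ± 0.14 (adjusted p = 0.0090). It reached 1 RPKM only at st8 of series 1 and at st10, so without st10 it would not have passed the filter. Its change from st8 to st10, 0.72 ± 0.14, is therefore given as a value and not as a test. The copies therefore rose over the same step at very different levels, with a ratio of 30.1 and 46.3 at st8 and 18.7 and 22.8 at st10.

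The abdominal-A copies had similar values at every stage. On chromosome 8 the gene model aug3.g15592 (scaffold 48, 29396 to 65900, plus strand) was at 4.40 and 3.94 RPKM at st10, and its short partner aug3.g15593 (112426 to 115341) at 3.14 and 6.27. The X2 copy aug3.g25358 (scaffold 98, 884277 to 963743, plus strand) was at 4.52 and 4.72. Up to st8 the highest of the 3 in any sample was 0.460 RPKM, from 2 reads. All 3 passed the filter on low values only through st10, so their rise to st10 is given as values and not as a test. With the chromosome 8 pieces combined, the ratio of the copies at st10 was 0.89 and 0.98.

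Abdominal-B acts in the posterior abdomen of flies. The chromosome 8 copy aug3.g9048 (scaffold 985, 314423 to 327764, minus strand) was a late gene, at or under 0.289 RPKM up to st8 and at 4.01 and 7.44 at st10, and it too passed the filter only through st10. Hox-A9b aug3.g25355 (scaffold 98, 388226 to 412955, plus strand) is the next Hox gene after abdominal-A on chromosome X2 but was early. It was at 1.07 and 2.24 RPKM at st5 late, 14.5 and 5.09 at st6, 12.7 and 15.4 at st7 and 3.65 and 3.77 at st10. At st6 and st7 it was therefore present while aug3.g9048 had at most 0.127 RPKM. Its step from st5 late to st6 was 1.91 ± 0.34 (adjusted p = 0.015) and that from st5 late to st7 2.53 ± 0.34 (adjusted p = 0.00046). Within scaffold 98 this gene model at the end beyond abdominal-A thus preceded both other Hox gene models, abdominal-A and ultrabithorax-like.

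**Figure D3:**
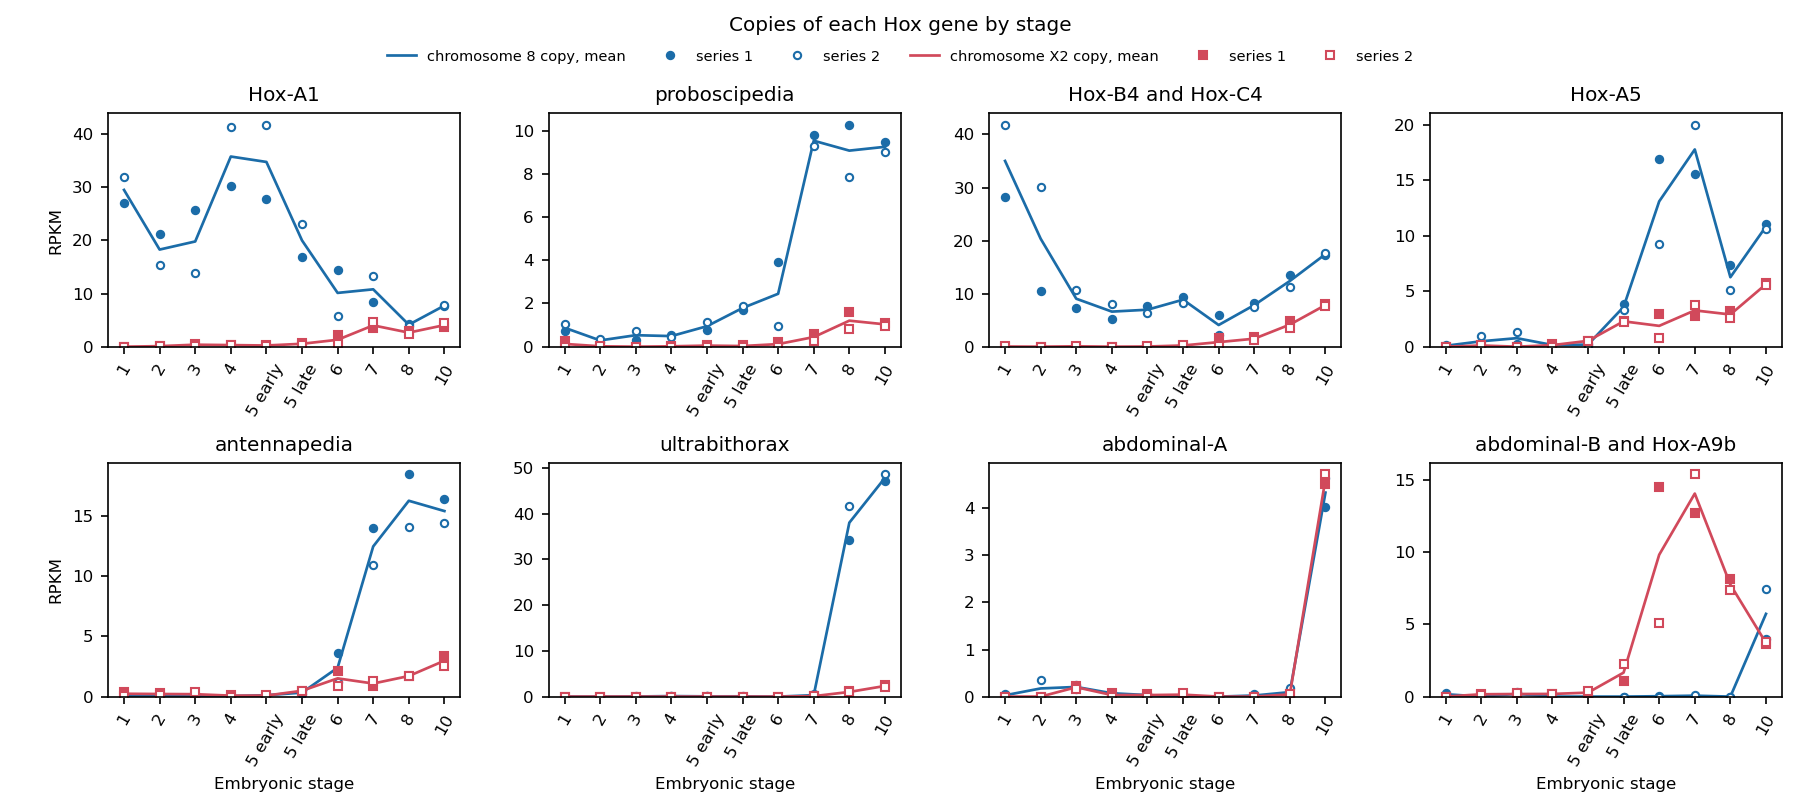
RPKM of the chromosome 8 copy (blue circles) and the X2 copy (red squares) at each stage, with filled symbols for series 1, open symbols for series 2 and lines for the mean; the scale differs between panels. The abdominal-A copies coincide at about 4.0 to 4.7 RPKM at st10, ultrabithorax on chromosome 8 reaches 47.1 and 48.6 beside 2.52 and 2.13, and Hox-A9b precedes abdominal-B.

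The difference between the copies was tested across stages on the log2 ratio of (RPKM + 1) within each sample, by a one-sided permutation test with stages permuted within each series (100000 resamples, adjusted over 6 pairs that share a description). It depended on stage for Hox-A1 (adjusted p = 0.00042), antennapedia (0.0015), proboscipedia (0.0019), Hox-A5 (0.0036) and ultrabithorax (0.012). For abdominal-A the adjusted p was 0.63, but its gene models had at most 4 reads in any sample up to st8. With both copies near 0 before st10, the test could not decide for that pair. On this scale a constant ratio also changes as both copies rise from near 0, so the ratios at late stages above are the fuller description. For Hox-A5 the adjusted p became 0.11 with a pseudocount of 0.1. For 2 further pairs, matched by their place on the chromosome after the data were seen, the adjusted permutation p over 8 pairs was 0.00028 (Hox-B4-like and Hox-C4-like) and 0.00091 (abdominal-B and Hox-A9b). Of the latter pair, abdominal-B had passed the filter on low values only through st10. Alignments that were not unique had been removed, so reads that fit both copies equally well do not enter either value.

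The Hox gene model with the highest level of all had no partner in the other group. Hox-B4a-like aug3.g1787 (scaffold 344, 98758 to 111174, minus strand) lies on chromosome X2 between Hox-A5 and antennapedia-like, which puts it away from the Hox4 position, and RefSeq gives it no other name. It was at 0.0478 and 0.147 RPKM at st1, 4.07 and 1.73 at st5 early and 21.5 and 15.7 at st5 late. It reached 75.1 and 76.1 at st7, with 49.8 and 37.9 at st8 and 21.9 and 13.6 at st10. The series agreed at st7 and were far apart at st6, where they had 65.7 and 10.4 RPKM. The rise from germ disc to germ band was 3.11 ± 0.34 on the log2 scale (adjusted p = 3.4e-06). At st7 the X2 group as a whole summed to 97.4 and 103 RPKM and the chromosome 8 group to 71.2 and 72.5, and most of the X2 sum was this gene model.

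Outside both groups, Hox-C10-like aug3.g15983 (scaffold 2105, 77706 to 146304, minus strand) had 2 separate phases. It was at 0.0712 and 0 RPKM at st1, 4.85 and 1.72 at st2 and below 1 RPKM in all samples from st4 to st7, then 5.33 and 6.63 at st8 and 5.75 and 8.31 at st10. Both the early rise (1.95 ± 0.34, adjusted p = 0.00066) and the late one from st7 to st8 (2.04 ± 0.34, adjusted p = 0.010) passed. Hox-B10a aug3.g6223 (scaffold 736, 482484 to 492342, plus strand) was at 1.09 and 1.65 RPKM at st2 and st3 of series 2 but at 0.284 and 0.142 in series 1, and reached 3.38 and 3.82 at st10. It rose from st8 to st10 by 1.99 ± 0.33 (adjusted p = 0.0012). Its change from germ disc to germ band, 0.55 ± 0.19, passed (adjusted p = 0.026) but not with a pseudocount of 0.1 (0.18) or with voom (0.33).

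Read along chromosome 8, the onsets from Hox-B4-like to abdominal-B came in the order of the genes. They were st1 for Hox-B4-like, st5 late for Hox-A5-like, st6 for antennapedia-like, st8 for ultrabithorax-like and st10 for abdominal-A and abdominal-B. The RNA of Hox-B4-like was already present at st1, the first stage sampled, so its start was not seen. The 5 Hox genes of scaffold 48 were thus all in this order. Of the genes before them, Hox-A1-like was likewise already over the limit at st1. Proboscipedia, at st5 late, came after Hox-B4-like. The onset of proboscipedia was also st1, however, with a limit of 0.5 RPKM, with 3 reads and in series 2 alone. On chromosome X2 the order was broken at both ends. Hox-A1 and Hox-C4-like began at st7, later than Hox-A5 at st5 late and Hox-B4a-like, which was first over the limit at st2 and stayed over it from st5 early. Hox-A9b, beyond abdominal-A, began at st5 late. The stages depend on the limit: 4 Hox gene models changed onset at 0.5 RPKM, 10 at 3 reads and 17 at 5 RPKM. At 3 reads the antennapedia-like gene model aug3.g15601 began at st5 early, before Hox-A5-like at st5 late, so the order on chromosome 8 does not hold at that limit. The break on X2 also depends on the limit. At 3 reads Hox-A1 of the X2 group began at st4, before Hox-A5 at st5 early but after Hox-B4a-like at st2. At 5 RPKM that Hox-A1 had no onset, and Hox-C4-like and the X2 copy of Hox-A5 both began at st10. Without st6 the onset of antennapedia-like at 1 RPKM would be read at st7.

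**Figure D4:**
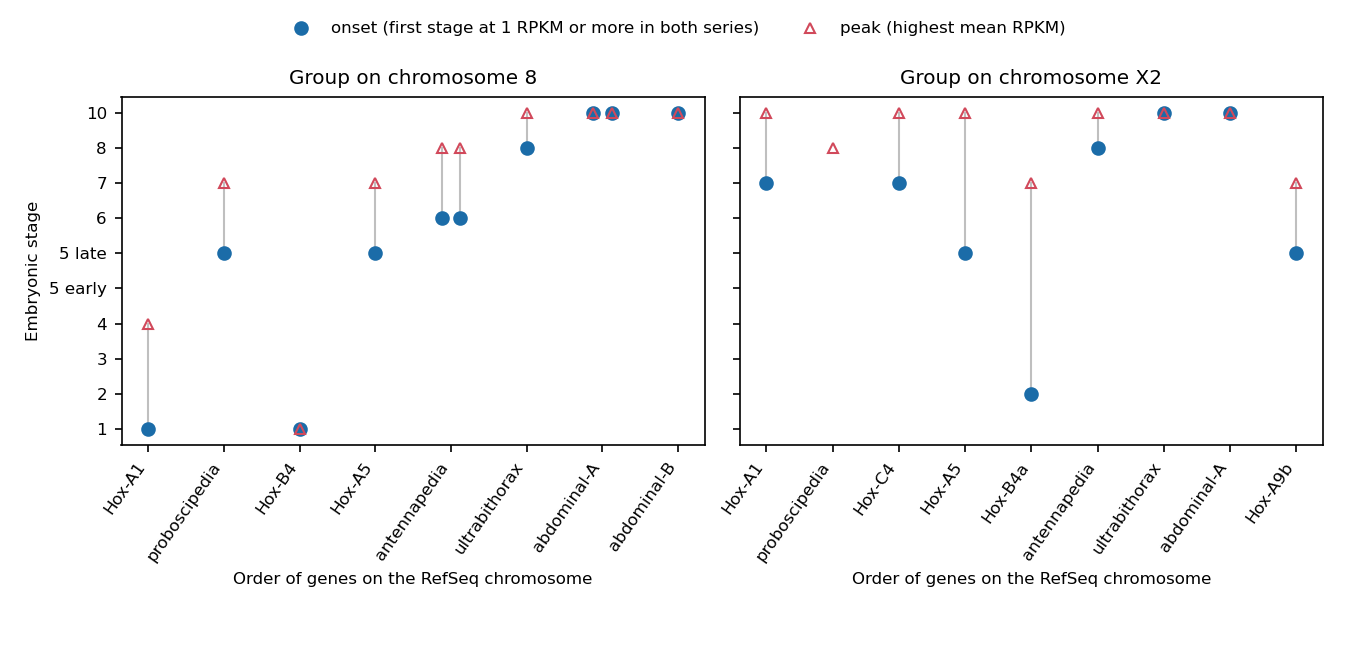
Onset (filled circles, first stage at 1 RPKM or more in both series) and peak (open triangles, highest mean) of the Hox gene models, in the order of the genes on chromosome 8 (left) and X2 (right). On chromosome 8 the onset moves from st5 late to st10 between Hox-A5 and abdominal-B, and on X2 the gene models Hox-B4a and Hox-A9b start before their neighbours.

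No Hox gene model differed between the series over all stages (limma with stage as a factor), beside 10.5% of all gene models tested. The lowest adjusted p was 0.085, 2 of the 21 had an unadjusted p under 0.05, and voom on the recovered reads called 0. Likewise the change from germ disc to germ band differed between the series for none by limma, a test added after the data were seen, with the lowest adjusted p at 0.24 and 2 with an unadjusted p under 0.05.

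Other genes of the Hox system were taken from lists of descriptions and compared over the same change from germ disc to germ band, where the median over all gene models tested was 0.05, and 28.2% rose and 18.5% fell. The Hox cofactors are homeodomain proteins that bind DNA together with Hox proteins. Their list held 9 gene models, several of them sharing a gene ID, of which 2 rose, 2 fell and 5 did not pass. PKNOX1-like aug3.g6392 rose by 1.18 ± 0.19 on the log2 scale and Meis1 aug3.g3111 by 0.67 ± 0.22, while extradenticle aug3.g20631 fell by 0.62 and extradenticle-like aug3.g27748 fell by 0.62. The other gene models with the same extradenticle gene IDs did not pass (limma, adjusted p from 0.057 to 0.35). The cofactors differed from the Hox genes in that most were already present in the germ disc, with Meis1 at a mean of 77.2 RPKM and extradenticle at 34.5. Of 16 gene models tested (of 17 listed) from the Polycomb group, which keeps Hox genes silent, 5 rose, 3 fell and 8 did not pass, shares close to those of all gene models tested. Polycomb itself (Pc-like aug3.g15477) went from a mean of 23.4 to 73.9 RPKM, and the 3 that fell were all gene models of 1 gene ID, named enhancer of polycomb, led by aug3.g22195, which fell by 0.94. Of 5 of the trithorax group, which keeps Hox genes active, 3 rose and 2 fell, among them ASH2-like aug3.g20838 (0.90 ± 0.12 on the log2 scale) and osa-like aug3.g9266, which went from a mean of 127 to 36.9 RPKM. Another osa-like gene model with a different gene ID, aug3.g27938, went the other way and rose by 0.81 ± 0.20.

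Among 11 head and segmentation homeobox gene models tested (of 12 listed), 7 rose and 1, engrailed-like ceh-16 aug3.g15243, fell (-1.19 ± 0.21). The rises were led by EMX1 aug3.g26211 (2.89 ± 0.27 on the log2 scale), EMX2 aug3.g26210 (2.76 ± 0.13) and EMX1-like aug3.g2295 (2.68 ± 0.21), relatives of the fly head gene empty spiracles. OTX2 aug3.g25936 followed (2.51 ± 0.13). Engrailed aug3.g14050, which marks segment borders, rose less (1.86 ± 0.17). Of 7 gene models on the ParaHox list 3 rose and 1 fell, but only CDX-1-like aug3.g12643, a relative of the posterior gene caudal, is a homeobox gene, and it rose by 2.26 ± 0.23. The other 6 were caught by the word bicaudal.

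Marker lists for cell types were compared over the same change, in which 28.2% of all gene models tested rose and 18.5% fell. All 9 hemocyanin gene models rose, with a summed level of 0.224 to 1.45 RPKM in the germ disc samples and 1.58 to 1444 in the germ band samples. Of 10 muscle gene models tested (of 17 listed) 2 rose (sums of 69.5 to 216 and 193 to 253 RPKM). Both were tropomyosin gene models of the same gene ID. Much of the sums came from aug3.g670 of this pair, at means of 108 and 190 RPKM. Of 16 tested from the neuronal list (of 46 listed) 2 rose and 2 fell (422 to 509 and 421 to 481). The gene models that rose or fell were all CUGBP Elav-like, caught by the word elav, so these counts do not describe neuronal markers. Much of the sums came from ELAV-like protein 1 pseudogene aug3.g757, at means of 367 and 341 RPKM. Both piwi-like gene models of the germ line list fell (465 to 942 and 140 to 408). The part of changing cell types in the Hox values was not tested. The gene models whose profile was most like the mean profile of the 21 over the 20 samples were the T-box gene TBX20 aug3.g8837 (Pearson r = 0.992), an uncharacterized aug3.g26871 (0.987) and ZFP36L1-like aug3.g13259 (0.986), as a description over samples that share stages. The next were lysophosphatidylcholine acyltransferase 2B-like aug3.g14765 (0.984) and an uncharacterized aug3.g19464 (0.983).

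Between Hox gene models on the same scaffold lay 19 other gene models, of which 11 reached 1 RPKM in at least 2 samples, and 6 of those are long non-coding RNAs by the RefSeq annotation. Some were confined to few stages and others were broad, such as aug3.g15605, which reached 1 RPKM in 13 samples. Gene model aug3.g15594 (scaffold 48, 149942 to 267134, minus strand), a non-coding RNA between abdominal-A and ultrabithorax-like, was at or under 0.217 RPKM up to st7, 7.31 and 7.62 at st8 and 8.31 and 8.32 at st10, so that it appeared at the same stage as ultrabithorax-like. Gene model aug3.g15599 (593893 to 633970, minus strand), also non-coding, lies within antennapedia-like aug3.g15600 on the opposite strand. It had no reads up to st5 early, 7.87 and 7.99 RPKM at st5 late, 13.7 and 20.8 at st7 and 0.334 and 0.770 at st10, so that it was high before aug3.g15600 reached its peak. Reads had been assigned by strand, but how many came from the other strand was not tested.

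**Figure D5:**
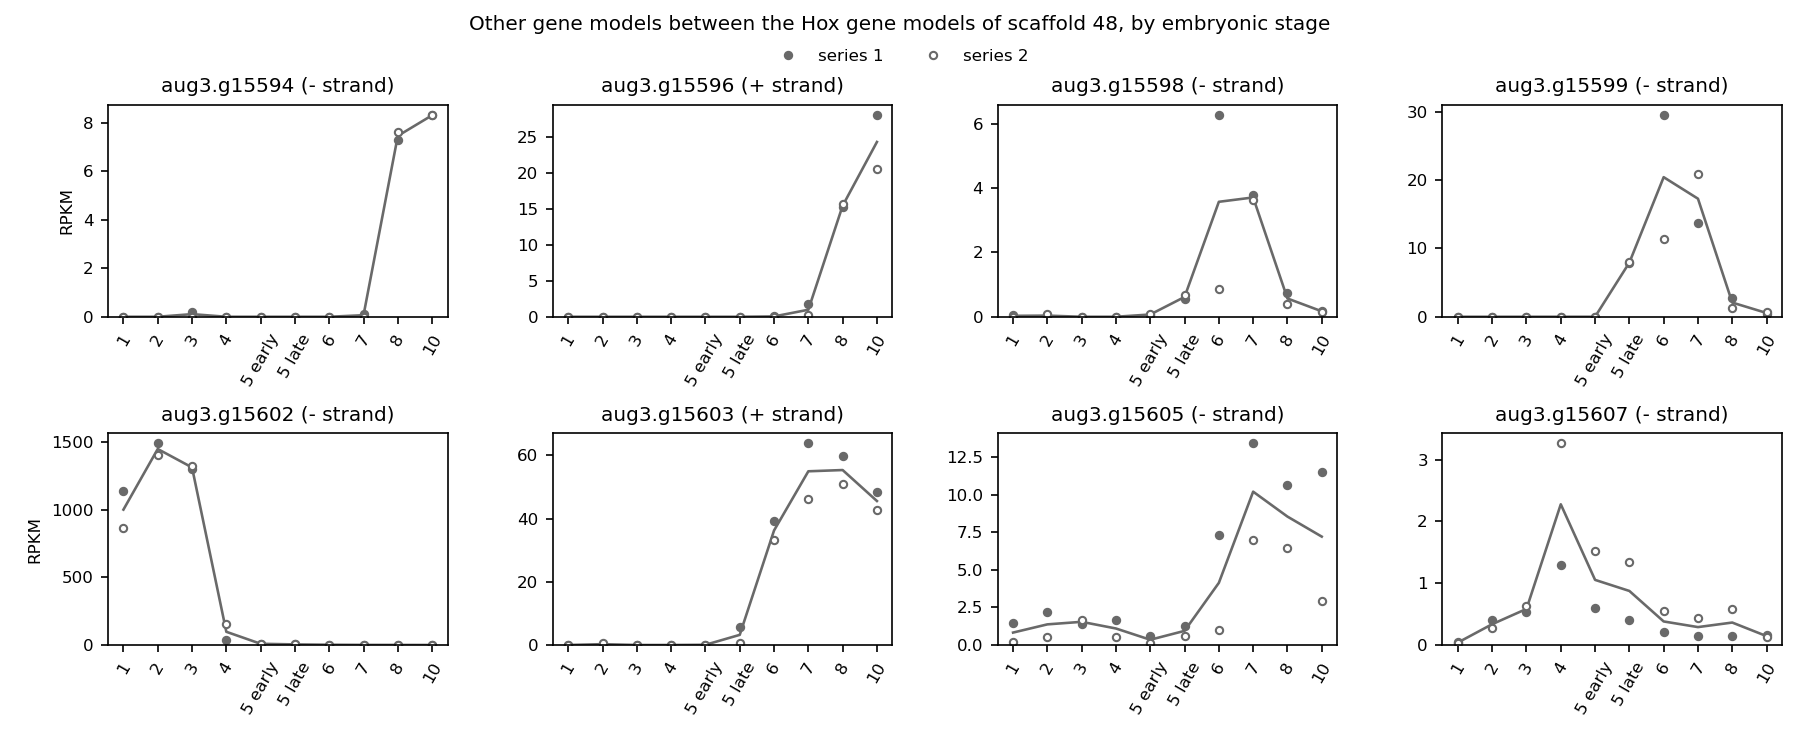
RPKM by stage of the 8 gene models that lie between the Hox gene models of scaffold 48 and reached 1 RPKM in at least 2 samples, with filled circles for series 1, open circles for series 2 and a line for the mean; the scale differs between panels. Gene model aug3.g15594 starts at st8, aug3.g15599 is highest at st6 and st7, and aug3.g15602 is at 867 to 1493 RPKM from st1 to st3 and nearly gone by st10.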

How the data were processed

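Poly(A) RNA of whole embryos was sequenced by the authors as strand-specific libraries, aligned to Ptep_1.0 with BLAT, filtered for uniqueness and counted on AUGUSTUS gene models with htseq-count 0.6.1p1. The deposited values are RPKM per gene model and sample, not counts, so no count test was the main result. Read totals and exon lengths were recovered from the RPKM values, and all 21 Hox gene models came out as whole reads. Gene models with at least 1 RPKM in at least 2 samples were tested as log2(RPKM + 1) with limma 3.58.1 (R 4.3.3) over stage means, with Benjamini-Hochberg adjustment over all of them and a threshold of 0.05. Fold changes on this scale understate those of low genes. Fits were checked on simulated data. Alternatives were another pseudocount, other filters, scaling, voom on the recovered reads, a replicate block and single series. Same-numbered samples share parents, and their deviations from stage means correlated at a median of 0.24 (-0.06 to 0.70, over 0.1 in 37 of 45 pairs of stages). Names, gene types and gene order, never coordinates, were taken from the RefSeq annotation of CAS_Ptep_4.0, and all 21 matched. Every Hox gene model was named, likewise the 5 gene models most like their mean profile and the 2 to 4 list members with the largest changes. The members and lists were chosen with earlier results of these data known. All 20 value columns were assigned to samples, 0 were not.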

Additional observations from a re-analysis of the deposited data

How the results depend on the processing

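The direction of every Hox gene model from germ disc to germ band and from st1 to st10 stayed the same under all alternatives run. Calls over these long spans were also kept, except for Hox-B4-like aug3.g15608 and Hox-B10a aug3.g6223 (given with their values in the report) and where a minimum of 5 RPKM left only 12 gene models in the test. Then 12 differed across stages, 12 from germ disc to germ band, 11 from st1 to st10 and 0 from st8 to st10. Hox-B4-like also passed from st1 to st10 without both st6 samples (adjusted p = 0.043) and with only those 2 stages (0.038). Counts over single steps moved more, and the cause was not tested. With a pseudocount of 0.1, 2 gene models changed from st1 to st2, 0 from st5 early to st5 late, 1 from st5 late to st6 and 0 from st6 to st7, and the adjusted p of the Hox-A5 pair was 0.109. With no filter the counts were 1 (st2 to st3), 1 (st3 to st4) and 0 (st5 early to st5 late). Median-ratio scaling gave 1 (st3 to st4), 3 (st5 early to st5 late) and 4 (st5 late to st6). With the series as a replicate block they were 1 (st2 to st3, Hox-C10-like aug3.g15983, lower) and 2 (st5 early to st5 late, with Hox-B4a-like aug3.g1787 added), and the block changed no other call. Voom gave 0 (st5 early to st5 late) and 1 (st5 late to st6). Without both st6 samples, chosen after seeing the data, the counts were 2 (st1 to st2), 1 (st3 to st4), 1 (st4 against st5 early), 4 (within st5) and 10 (st8 to st10). With only the stages compared they were 0 in each step from st5 early to st8, 0 from st5 late to st7 and 3 from st8 to st10. In each series alone, with 1 sample a stage and no test, the median log2 change of the 21 was 0 to 0.0566 (st1 to st2), 0 to 0.04 (st2 to st3), 0 to 0.0155 (st4 against st5 early), 0.14 to 0.21 (within st5), 0 to 0.26 (st5 late to st6), 0.0916 to 1.03 (st6 to st7) and 0.52 to 0.68 (st8 to st10). An onset limit of 5 RPKM was reached by 12 gene models, 3 of them by st5 late, and a limit of 3 reads was reached by 13 by st5 late. Pairing the copies by homeodomain identity could not be run, since no protein sequences were used here.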

Other observations

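The following gene models lie in or beside the Hox groups and were chosen after their values were seen. Gene model aug3.g27124, described as Mix.2-like and named hox3-B among its RefSeq synonyms, belongs to the X2 group. It was at 0.659 and 0.404 RPKM at st1, 4.17 and 4.20 at st7, 7.05 and 8.60 at st8 and 8.66 and 8.41 at st10, so that both series put its rise in the germ band.

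Gene model aug3.g15602 (scaffold 48, 914312 to 920233, minus strand), a long non-coding RNA in the RefSeq annotation, lies between antennapedia-like and Hox-A5-like. It was at 1137 and 867 RPKM at st1, 1493 and 1409 at st2 and 1302 and 1327 at st3. It stood at 38.1 and 158 at st4, and at 0.107 and 0.0920 at st10, so that it was by far the most abundant of the gene models between Hox genes while most of those were near 0.

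Gene model aug3.g15603 (scaffold 48, 971955 to 1004499, plus strand) carries neither a gene ID nor a description. It had no reads at st1 and was at 39.2 and 33.2 RPKM at st6, 63.8 and 46.1 at st7 and 48.3 and 42.7 at st10, which is above all Hox gene models of chromosome 8 at st7. Gene model aug3.g15596 (394126 to 423060, plus strand), uncharacterized, follows ultrabithorax-like on the same strand and reached 15.2 and 15.7 RPKM at st8 and 28.0 and 20.6 at st10.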
